A study of Rattus norvegicus with 8 samples.

Results

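The 45 genes described here encode plasma proteins of the complement and coagulation cascades. They comprise 25 complement genes, with the C1 inhibitor Serping1 counted among them, and 20 genes of clotting, its inhibitors and fibrinolysis. Each gene was listed by symbol and measured through the probes whose RefSeq accession, as printed in the scanner files, belongs to it. A probe was assigned to 40 of the 45, and these 40 were well above background on all 8 arrays, among 22872 features tested in all. C5, C8g, F11, F5 and F13b had no probe assigned by this match and were not analysed here.

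The samples were livers of male rats that were 22 weeks old, each hybridised to its own single-colour Agilent array. The 5 high-fat samples came after 14 weeks of high fat diet and carry the disease state NAFLD (non-alcoholic fatty liver disease), and the 3 control samples came after 14 weeks of standard chow. The labels name no strain, diet composition or further treatment. Whether the samples are separate animals is not stated there, and p-values thus reflect a sample-to-sample spread that may be technical. The series title sets the study in glucose and lipid metabolism, and the comparison of diets here asks how the liver's transcripts for secreted complement and clotting proteins differed between NAFLD and control liver.

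Complement is a chain of plasma proteases and binding proteins that tags particles for uptake and can assemble a pore in a membrane. It starts from C1q bound to antibody, from mannose-binding lectins or on surfaces in the alternative pathway, and the routes meet at C3. Coagulation is a parallel protease cascade that ends with thrombin cutting fibrinogen to fibrin, which plasmin later dissolves. Hepatocytes make most of these proteins, whereas C1q and properdin come mainly from macrophages and other myeloid cells, and adipsin (Cfd) mainly from fat cells.

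Values are log2 signals relative to the 75th percentile of the same array, and differences are high-fat minus chow on that log2 scale, with the standard error after the ± sign. Probes above background made up 79.1% to 92.8% on the high-fat arrays and 66.9% to 71.8% on the chow arrays. The 75th percentile signal was 725 to 1045 intensity units on the high-fat arrays, and 300.1, 559 and 278 on chow arrays 1, 2 and 3. Arrays with the same scan date and time in the file headers were taken to share a slide, since no slide name was read. By this rule high-fat arrays 1 and 4 lay on slide 1 and high-fat arrays 2, 3 and 5 on slide 2. All 3 chow arrays lay on slide 3, so slide and diet cannot be told apart. Slide 1 was scanned on another day than slides 2 and 3, so slide and scan day cannot be told apart within the high-fat diet. All 10 hepatocyte markers, among them Alb, were in the test, and their summed linear signal relative to the 75th percentile was 722 to 835 on the high-fat arrays and 748 to 1185 on the chow arrays. In whole liver, fewer cells of a type and less RNA per cell cannot be told apart.

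None of the 40 complement and coagulation genes passed the test of diet (limma, Benjamini-Hochberg adjustment over all 22872 features, threshold 0.05), where 815 features passed, which is 3.56% of those tested. At an unadjusted p under 0.05, 5 of the 40 lay lower on high-fat diet (F10, C2, C4bpa, C1qa and Fgb) and 0 lay higher. Of all features 9.37% lay lower and 10.8% higher at that p. The members' counts varied with the processing: 0 lay lower and 1 higher under quantile normalization (10.7% and 10.9% of all features) and in the authors' value table (10.8% and 11.1%), and 3 and 3 with normexp background (17.2% and 3.66%). The differences of the 40 ran from −0.49 for F10 to 0.49 for F9, and their 95% intervals reached from −0.95 for Fgb to 1.40 for Klkb1. Differences beyond 1 log2 unit thus lay outside the interval of every member except C6, F9 and Klkb1, whose intervals reached 1.102, 1.113 and 1.40. These intervals take the arrays as independent. With slide as a random block (correlation within slide 0.451) the standard errors of Fgb and Fga were 0.36 and 0.33, against 0.21 and 0.19. The bound of 1 log2 unit therefore does not carry over to that fit. The groups did not overlap for 4 members, F10, C2, C1qa and C4bpa, all lower on high-fat diet, against 9.17% of all features that did not overlap in that direction.

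The median difference of the 40 was −0.19 with 28 of 40 negative, where 50.5% of all features were negative, but it turned to 0.034 with 16 negative under quantile normalization and to 0.034 in the authors' value table. It was 0.020 with normexp background and quantile normalization together. With normexp background alone the median of all features moved from −0.0055 to −0.29, and that of the members was −0.10, above it. Of the 40 probes, 31 fell in the brightest decile of features by mean signal, as did those of all 10 hepatocyte markers. The parts of probe and transcript amount in that signal were not tested. The brightest decile had a median of −0.24, the 31 members in it −0.23 and the 9 dimmer members 0.16. The sign of the set's median therefore varied with the scaling between arrays. The 10 hepatocyte markers moved with it: their median difference was −0.37 with 10 of 10 negative and 0 passing, and −0.057 with 6 of 10 negative under quantile normalization. The part of hepatocyte RNA in the members' differences was not tested.

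**Figure D1:**
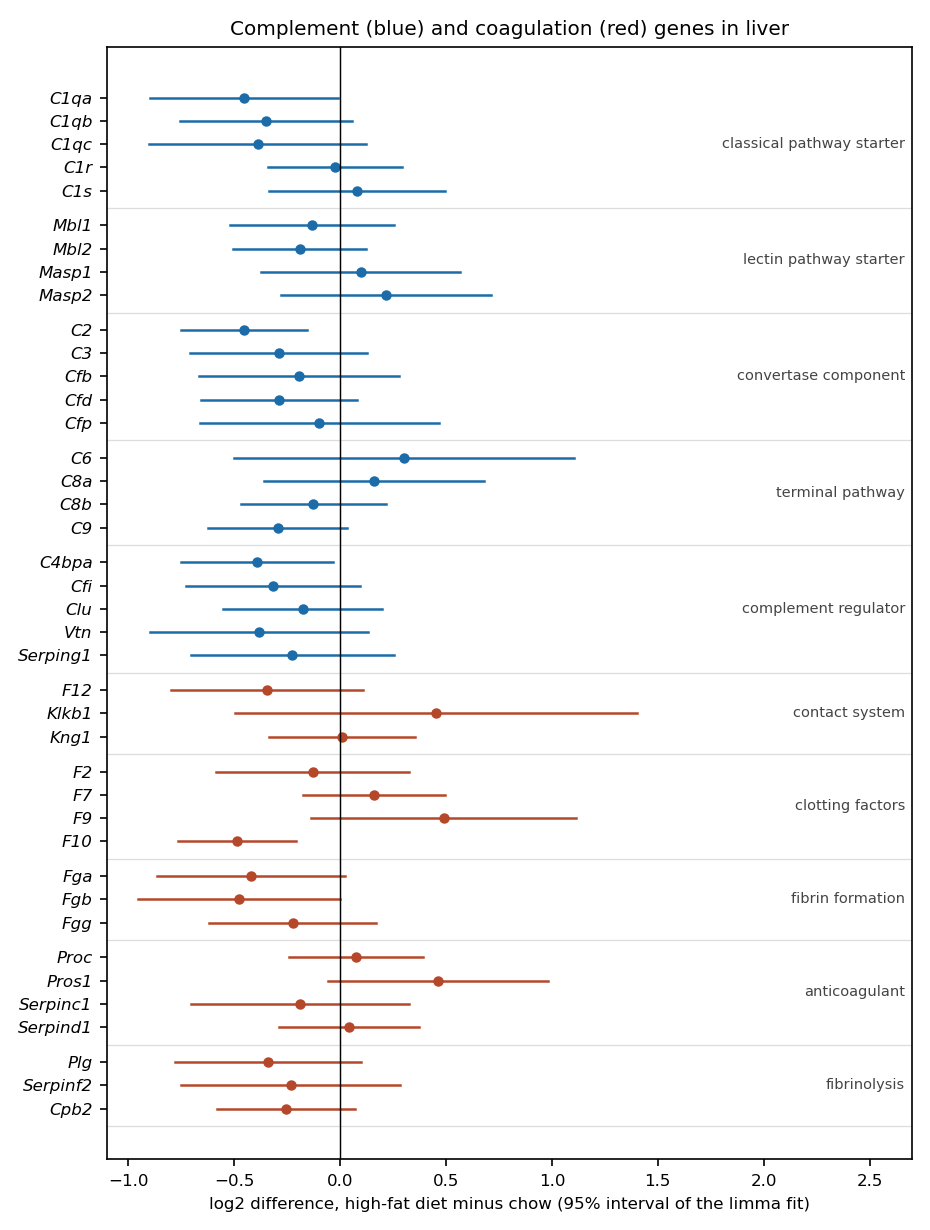
Each point is the log2 difference of a gene between 5 high-fat and 3 chow arrays on the 75th percentile scale, and each line its 95% interval from the limma fit, with complement genes in blue and coagulation genes in red, grouped by role. The points lie between −0.49 and 0.49, and 0 of 40 passed after adjustment. The median of −0.19 turns to 0.034 under quantile normalization and in the authors' value table.

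Complement and coagulation genes had nearly the same median. The 23 complement genes tested had a median difference of −0.19 with 18 negative, and the 17 coagulation genes −0.19 with 10 negative. Under quantile normalization both were above 0, at 0.025 and 0.11, and in the authors' value table at 0.027 and 0.11. With normexp background and quantile normalization they were 0.018 and 0.046. With the high-fat arrays of slide 1 alone they were −0.16 and 0.053. Counting Serping1, which inhibits C1r and C1s and also the contact proteases, with coagulation gave −0.19 and −0.21. Averaged over members after centring each gene, complement minus coagulation was −0.032 ± 0.061 with high-fat diet (SD, n = 5) and 0.055 ± 0.117 with chow (SD, n = 3). That gap between the diets was smaller than the SD of the chow arrays and larger than the SD of the high-fat arrays.

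The classical pathway starts with C1q, built from the chains of C1qa, C1qb and C1qc, and with the proteases C1r and C1s that it carries. The C1qa value was 3.36, 3.24, 3.24, 3.82 and 3.80 over high-fat arrays 1 to 5, against 3.87, 4.11 and 3.85 over chow arrays 1 to 3. For C1qb the high-fat arrays gave 4.06, 3.91, 3.89, 4.50 and 4.30 and the chow arrays 4.42, 4.57 and 4.45. For C1qc they gave 1.92, 2.06, 2.27, 2.49 and 2.72 against 2.54, 3.02 and 2.49. All 3 chains were low on high-fat arrays 1, 2 and 3 and near the chow values on high-fat arrays 4 and 5, and they were highest of the chow arrays on chow array 2. The groups overlapped for C1qb and C1qc and were apart by a small margin for C1qa.

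The C1q differences were −0.45 ± 0.20 for C1qa (limma adjusted p = 0.240), −0.35 ± 0.18 for C1qb (0.310) and −0.39 ± 0.22 for C1qc (0.376). Each of the 3 chains kept a negative difference under all 20 alternatives of the processing, including each scaling. For any gene with 1 probe, changing the filter on dim probes or averaging over probes could not alter the difference. Kupffer cell and macrophage markers showed a similar array pattern: their mean centred value was −0.21, −0.25, −0.14, 0.28 and 0.28 over high-fat arrays 1 to 5, against −0.16, 0.43 and −0.24 over chow arrays 1 to 3. The C1q chains gave −0.34, −0.39, −0.32, 0.15 and 0.15 against 0.16, 0.45 and 0.14. Both were thus higher on high-fat arrays 4 and 5 and on chow array 2, while on chow arrays 1 and 3 the chains lay above their mean and the markers below it. Of the 10 markers 9 were tested and 0 passed, with a summed signal of 28.1 to 35.7 on the high-fat and 33.2 to 49.1 on the chow arrays. Their differences were 4 negative and 5 positive with a median of 0.029, from −0.59 ± 0.16 for Clec4f, a lectin of resident Kupffer cells (limma adjusted p = 0.0864), to 0.40 ± 0.25 for Csf1r, the receptor for a macrophage growth factor (0.412). The part of macrophage number in the C1q values was not tested.

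The C1 proteases lay close to 0. C1r had a difference of −0.025 ± 0.14 (95% interval −0.34 to 0.29) and C1s 0.079 ± 0.18 (−0.34 to 0.50). C1r and C1s are neighbours on chromosome 4 with 0 coding genes between them in the GRCr8 annotation, and C1qb, C1qc and C1qa follow each other in the same way on chromosome 5.

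The lectin pathway recognises sugars through the mannose-binding lectins Mbl1 and Mbl2 and acts through the proteases Masp1 and Masp2. Mbl2 gave 3.65, 3.47, 3.33, 3.50 and 3.29 on the high-fat and 3.60, 3.66 and 3.66 on the chow arrays, a difference of −0.19 ± 0.14 (limma adjusted p = 0.486). High-fat array 1 lay within the chow range for it and the other 4 lay below. Mbl1 had −0.13 ± 0.17. Masp2 gave 1.20, 1.43, 2.06, 1.47 and 1.62 against 1.21, 1.64 and 1.17, a difference of 0.22 ± 0.22 with overlapping groups. Masp1 had 0.10 ± 0.20 from 4 high-fat values, since its spot on high-fat array 4 was marked as an outlier, and its 2 other probes gave −0.11 and 0.12. The pathway's 4 genes had a median of −0.018, which was 0.16 under quantile normalization.

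The convertase step holds C2, the protease that joins the C3 convertase of the classical and lectin pathways, and its counterpart factor B (Cfb) of the alternative pathway. C2 was 3.30, 3.38, 3.26, 3.34 and 3.53 over high-fat arrays 1 to 5, against 3.80, 3.75 and 3.90 over chow arrays 1 to 3. All 5 high-fat values lay below all 3 chow values, and the gap to the nearest chow array was wider than the spread of the chow arrays. The difference was −0.45 ± 0.13 (1.37-fold, 95% interval −0.75 to −0.16, limma adjusted p = 0.104). It stayed negative under all 20 alternatives, from −0.50 to −0.26. A second C2 probe disagreed: its difference was −0.14 ± 0.19 with overlapping groups.

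Cfb, the next coding gene to C2 on chromosome 20, gave 5.85, 5.75, 5.69, 6.33 and 5.76 on the high-fat and 6.23, 5.71 and 6.27 on the chow arrays. Its groups overlapped in full, with high-fat array 4 the highest of all 8, and the difference was −0.19 ± 0.21. C3, the protein on which all routes converge, was 6.49, 6.37, 6.50, 6.62 and 6.40 against 6.98, 6.33 and 6.99. Chow arrays 1 and 3 lay above every high-fat array and chow array 2 below every one. The difference of C3 was −0.29 ± 0.18 (limma adjusted p = 0.421) and became 0.078 under quantile normalization. Cfd, the protease that cuts factor B, had −0.29 ± 0.16, and properdin (Cfp), which stabilises the alternative convertase, −0.10 ± 0.25.

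The terminal pathway forms the membrane pore from C5 to C9. C9, the subunit that lines the pore, was 5.51, 5.63, 5.78, 5.59 and 5.58 on the high-fat and 6.12, 5.74 and 5.88 on the chow arrays, a difference of −0.30 ± 0.14 (limma adjusted p = 0.293). High-fat array 3 lay above the lowest chow array. C6 was 3.78, 2.89, 2.59, 3.96 and 2.94 against 3.34, 2.92 and 2.54. It was high on both high-fat arrays of slide 1 and low on the 3 of slide 2, a gap of 1.06 log2 units within the high-fat diet. Its difference of 0.30 ± 0.35 was 0.94 with the high-fat arrays of slide 1 alone and −0.12 with those of slide 2 alone. C8a and C8b, chains of C8 and neighbours on chromosome 5, had 0.16 ± 0.23 and −0.13 ± 0.15, and a second C8a probe gave 0.45.

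**Figure D2:**
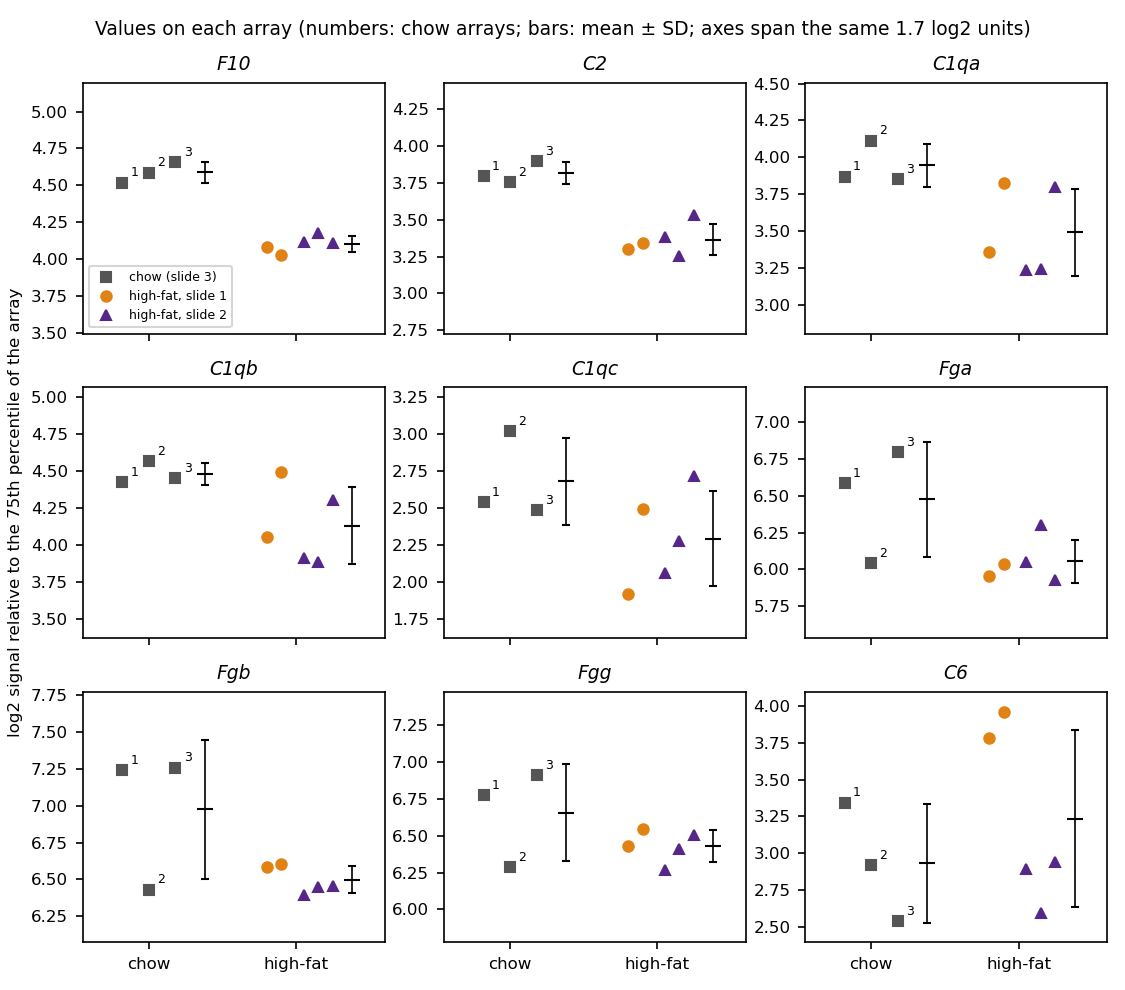
Log2 signal relative to the 75th percentile of the array for 9 members on each of 8 arrays: squares are chow arrays, numbered, circles high-fat arrays of slide 1 and triangles high-fat arrays of slide 2, with the group mean and SD beside them. F10 and C2 are apart between diets on every array, the C1q chains are lowest on 3 high-fat arrays, the fibrinogen chains are split by chow array 2, and C6 by the slide of the high-fat arrays. A second C2 probe, whose values overlapped between diets, is not shown.

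The complement regulators restrain the cascade on host surfaces and in plasma: C4bpa binds C4b, factor I (Cfi) cuts C3b and C4b, clusterin (Clu) and vitronectin (Vtn) block the terminal complex and Serping1 blocks C1r and C1s. C4bpa was 6.13, 6.04, 5.99, 6.13 and 6.09 on the high-fat and 6.56, 6.15 and 6.70 on the chow arrays. The groups did not overlap, but chow array 2 lay just above the highest high-fat array, and the difference was −0.39 ± 0.16 (limma adjusted p = 0.213). Cfi was 6.50, 6.35, 6.22, 6.59 and 6.33 against 6.85, 6.34 and 6.96, with chow array 2 inside the high-fat range. Its difference was −0.32 ± 0.18, and those of Vtn, Serping1 and Clu were −0.38 ± 0.23, −0.23 ± 0.21 and −0.18 ± 0.16. All 5 regulators were lowest on chow array 2 among the chow arrays. All 5 differences were negative on the 75th percentile scale and with normexp background, while under quantile normalization, with or without normexp, and in the authors' own values the negative ones numbered 2 of 5.

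The contact system starts clotting on negatively charged surfaces. Factor XII (F12), its first protease, was 5.72, 5.50, 5.37, 5.87 and 5.41 on the high-fat and 6.05, 5.54 and 6.18 on the chow arrays, a difference of −0.35 ± 0.20 (limma adjusted p = 0.373). Plasma prekallikrein (Klkb1), which factor XII activates, was 4.16, 3.57, 4.21, 5.19 and 4.41 against 2.99, 4.11 and 4.47. Its SD of 0.77 on chow (n = 3) was the widest of the members there, that on high-fat was 0.58 (n = 5), and its difference was 0.45 ± 0.42 (95% interval −0.50 to 1.40). Kininogen (Kng1), the source of bradykinin, had 0.0092 ± 0.15. These intervals reach up to 1.40 log2 units in Klkb1 and up to 0.35 in Kng1.

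Factor X (F10) is the protease that turns prothrombin into thrombin, and it had the largest difference by p among the 40. Its value was 4.08, 4.11, 4.18, 4.03 and 4.11 over high-fat arrays 1 to 5, against 4.52, 4.59 and 4.66 over chow arrays 1 to 3. The means were 4.10 ± 0.05 (SD, n = 5) and 4.59 ± 0.07 (SD, n = 3), with every high-fat array below every chow array. The difference was −0.49 ± 0.12 (1.40-fold, 95% interval −0.76 to −0.21), and it missed the threshold after adjustment (limma adjusted p = 0.0725). It was negative under all 20 alternatives, from −0.66 to −0.29, and passed in 2 of them: −0.59 with normexp background and quantile normalization (limma adjusted p = 0.0233) and −0.45 with array weights (0.0213). Those fits called 4.7% and 6.87% of all features as lower. F10 did not pass with quantile normalization (limma adjusted p = 0.29), with slide as a random block (0.676) or with the replicate block (0.443).

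Factor X's neighbour on chromosome 16, F7, encodes the protease that works with tissue factor, and 0 coding genes lie between them. F7 lay at −1.40, −1.57, −1.37, −1.59 and −1.75 on the high-fat and −1.85, −1.61 and −1.62 on the chow arrays, a difference of 0.16 ± 0.15 with overlapping groups. The adjacent F10 and F7 thus had differences of opposite sign, which under normexp background became the same sign (F7 −0.20).

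Factor IX (F9), which with its cofactor activates factor X, had the highest difference of the set. It was 2.70, 1.93, 2.61, 2.94 and 1.87 on the high-fat and 1.83, 2.11 and 1.84 on the chow arrays. High-fat arrays 1, 3 and 4 lay above every chow array and arrays 2 and 5 inside the chow range. The difference was 0.49 ± 0.27 (limma adjusted p = 0.360), and it was positive under all 20 alternatives, from 0.21 to 0.90. With normexp background and quantile normalization it passed at 0.75 (limma adjusted p = 0.0497), and with the high-fat arrays of slide 1 alone at 0.90 (0.0421), fits that called 4.54% and 4.37% of all features as higher. With those of slide 2 alone it was 0.21. F9 did not pass with slide as a random block (limma adjusted p = 0.903) or with the replicate block (0.53). Prothrombin (F2), the precursor of thrombin, was 6.14, 5.77, 5.94, 6.23 and 5.90 against 6.25, 5.70 and 6.42, with overlapping groups and a difference of −0.13 ± 0.20.

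Vitamin K-dependent carboxylation is needed by 6 of the members (F2, F7, F9, F10, Proc and Pros1). Their differences split into 2 negative and 4 positive, with a median of 0.12 on the 75th percentile scale. The difference of F2 became 0.14 under quantile normalization. The enzyme that performs the carboxylation, Ggcx, is no member and was 1 of the few pathway genes to pass: 2.58, 2.35, 2.19, 2.62 and 2.35 on the high-fat and 3.27, 2.97 and 3.17 on the chow arrays. Every high-fat value lay below every chow value, a difference of −0.72 ± 0.16 (limma adjusted p = 0.0448). The call was lost in each of the 8 fits that left out 1 array, where the limma adjusted p was 0.0555 to 0.174, with a random slide block (0.504), with the replicate block (0.241) and with the high-fat arrays of slide 1 alone (0.105). It was kept in 9 of the 20 alternatives, among them quantile normalization (0.0324), normexp background (0.0442) and the authors' value table (0.0297), and the difference stayed negative in all 20, from −0.96 to −0.54.

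Fibrinogen is assembled from the chains of Fga, Fgb and Fgg, whose genes stand side by side on chromosome 2. The 3 genes had the same pattern over the chow arrays, with chow array 2 lowest, as had 72.6% of the brightest decile. The regions before their starts are shown for that reason, and a link between sequence and pattern was not tested. They are the 250 bases before the start of each gene from RefSeq's GRCr8 annotation, 5′ to 3′ on the gene's strand: Fga at chr2:170671919-170672168 (plus), Fgb at chr2:170700876-170701125 (minus) and Fgg at chr2:170652833-170653082 (plus). Capitals mark matches on either strand to motifs of factors that act on liver genes: the C/EBP motif TTGCNNAA and the STAT3 motif TTCNNNGAA, where N is any base.
Fga: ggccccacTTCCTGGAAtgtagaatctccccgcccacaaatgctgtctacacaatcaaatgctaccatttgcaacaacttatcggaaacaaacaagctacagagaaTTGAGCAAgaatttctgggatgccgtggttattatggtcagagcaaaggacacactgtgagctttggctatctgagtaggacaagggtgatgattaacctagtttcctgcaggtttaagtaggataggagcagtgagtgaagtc
Fgb: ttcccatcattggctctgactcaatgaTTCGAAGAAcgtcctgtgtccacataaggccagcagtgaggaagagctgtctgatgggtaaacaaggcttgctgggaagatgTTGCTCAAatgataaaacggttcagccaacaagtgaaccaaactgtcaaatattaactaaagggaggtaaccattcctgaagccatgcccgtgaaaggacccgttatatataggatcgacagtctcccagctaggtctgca
Fgg: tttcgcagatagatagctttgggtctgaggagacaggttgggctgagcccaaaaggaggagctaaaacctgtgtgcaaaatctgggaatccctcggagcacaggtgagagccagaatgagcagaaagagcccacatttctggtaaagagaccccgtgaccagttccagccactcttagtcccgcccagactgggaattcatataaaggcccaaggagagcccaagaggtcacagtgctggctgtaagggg
In Fga the matches lie at bases 9 to 17 (STAT3) and 107 to 114 (C/EBP), counted from the first base printed. In Fgb they lie at bases 28 to 36 and 110 to 117, in the same order. None of these matches overlap, and Fgg holds no match in this window.

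The same search was run on windows from 250 bases before to 50 after the start, with a window for 34 of the 45 members. The C/EBP motif occurred in 12 of the 34 and in 10.5% of all 27457 promoters, and STAT3 in 7 of 34 and in 8.68% of all. An HNF4 motif, CAAAGTCCA, occurred in 0 of 34 and in 0.375% of all. A match describes letters and is not evidence of binding. The transcripts of these factors did not pass between the diets: the differences were 0.29 for Cebpa, 0.27 for Cebpb, −0.47 for Cebpd, 0.28 for Stat3 and −0.20 for Hnf4a.

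Fga was 5.96, 6.05, 6.30, 6.04 and 5.93 over high-fat arrays 1 to 5, against 6.59, 6.04 and 6.80 over chow arrays 1 to 3. Fgb was 6.58, 6.40, 6.45, 6.61 and 6.46 against 7.24, 6.43 and 7.26, and Fgg was 6.43, 6.27, 6.41, 6.55 and 6.51 against 6.77, 6.28 and 6.91. For each chain, chow arrays 1 and 3 lay above all 5 high-fat arrays and chow array 2 lay within the high-fat range. The differences were −0.42 ± 0.19 for Fga (limma adjusted p = 0.271), −0.48 ± 0.21 for Fgb (0.246) and −0.22 ± 0.17 for Fgg (0.521). Without chow array 2 they were −0.64, −0.75 and −0.41, and that of Fgb reached an adjusted p of 0.0541 (limma), with chow then resting on 2 arrays. Under quantile normalization the 3 differences were −0.14, −0.081 and 0.11, so the sign of Fgg turned.

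The anticoagulants shut clotting down: protein C (Proc) and its cofactor protein S (Pros1) destroy the cofactors V and VIII, and antithrombin (Serpinc1) and heparin cofactor II (Serpind1) trap thrombin. Pros1 was 0.65, 0.47, 1.24, 0.95 and 0.50 on the high-fat and 0.18, 0.64 and 0.08 on the chow arrays, a difference of 0.46 ± 0.23 (limma adjusted p = 0.297) that was positive under all 20 alternatives. Chow array 2 lay inside the high-fat range and the other chow arrays below it. Serpinc1 was 6.86, 6.46, 6.34, 7.11 and 6.48 against 7.04, 6.48 and 6.99. High-fat arrays 1 and 4, of slide 1, lay near chow arrays 1 and 3, and the 3 of slide 2 near chow array 2, with a difference of −0.19 ± 0.23. Proc and Serpind1 had 0.075 ± 0.14 and 0.043 ± 0.15.

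Fibrinolysis dissolves the clot through plasmin, cut from plasminogen (Plg). Antiplasmin (Serpinf2) blocks plasmin, and Cpb2 removes the sites on fibrin where it docks. Plg was 6.62, 6.32, 6.46, 6.66 and 6.33 on the high-fat and 6.98, 6.40 and 7.08 on the chow arrays, with chow array 2 inside the high-fat range. Its difference was −0.34 ± 0.19 (limma adjusted p = 0.361), or −0.55 without chow array 2. Cpb2 was 4.27, 4.33, 4.63, 4.45 and 4.26 against 4.59, 4.60 and 4.73, a difference of −0.25 ± 0.14 with high-fat array 3 inside the chow range. Serpinf2 had −0.23 ± 0.23. Under quantile normalization these became 0.035, −0.052 and −0.039 for Plg, Cpb2 and Serpinf2.

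Many members also differed between arrays of the same diet. Chow array 2 was the lowest chow array for 19 of the 39 members with a value on every array, against 46.8% of all features and 72.6% of the brightest decile. It was the highest for 13 of 39, against 25.5% and 9.35%. Chow arrays 1 and 3 lay above every high-fat array while chow array 2 did not for 13 of 39 members (C3, C9, Cfi, Clu, F12, F2, Fga, Fgb, Fgg, Plg, Serpinf2, Serping1 and Vtn), against 6.94% of all features and 23.1% of the brightest decile. All 9 members below the brightest decile were highest on chow array 2 among the chow arrays, as were 5 of the 31 in it. The hepatocyte markers were lowest on chow array 2 for 8 of 10. Chow array 2 also had the brightest 75th percentile signal of the chow arrays, and the part of that signal in the pattern was not tested.

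Without chow array 2, 13 of the 40 members lay lower at an unadjusted p under 0.05, against 10.1% of all features, and 0 passed after adjustment. The median difference was then −0.27 for complement and −0.34 for coagulation. For all 40 members it was −0.29, beside −0.32 for the brightest decile of features and −0.58 for the 10 hepatocyte markers, all 10 negative. This pattern was noticed in the values, and leaving out each array was 1 of the listed alternatives.

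Within the high-fat diet, both arrays of slide 1 lay above all 3 of slide 2 for 18 of 39 members, against 21% of all features and 57.9% of the brightest decile. The reverse held for 1 of 39, F10, against 38% of all features and 3.64% of the brightest decile. The largest gaps between the slide means were 1.06 for C6, 0.69 for F9, 0.61 for Klkb1 and 0.55 for Serpinc1. For each of them the gap between slides of 1 diet, which is also a gap between scan days, exceeded the difference between diets.

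**Figure D3:**
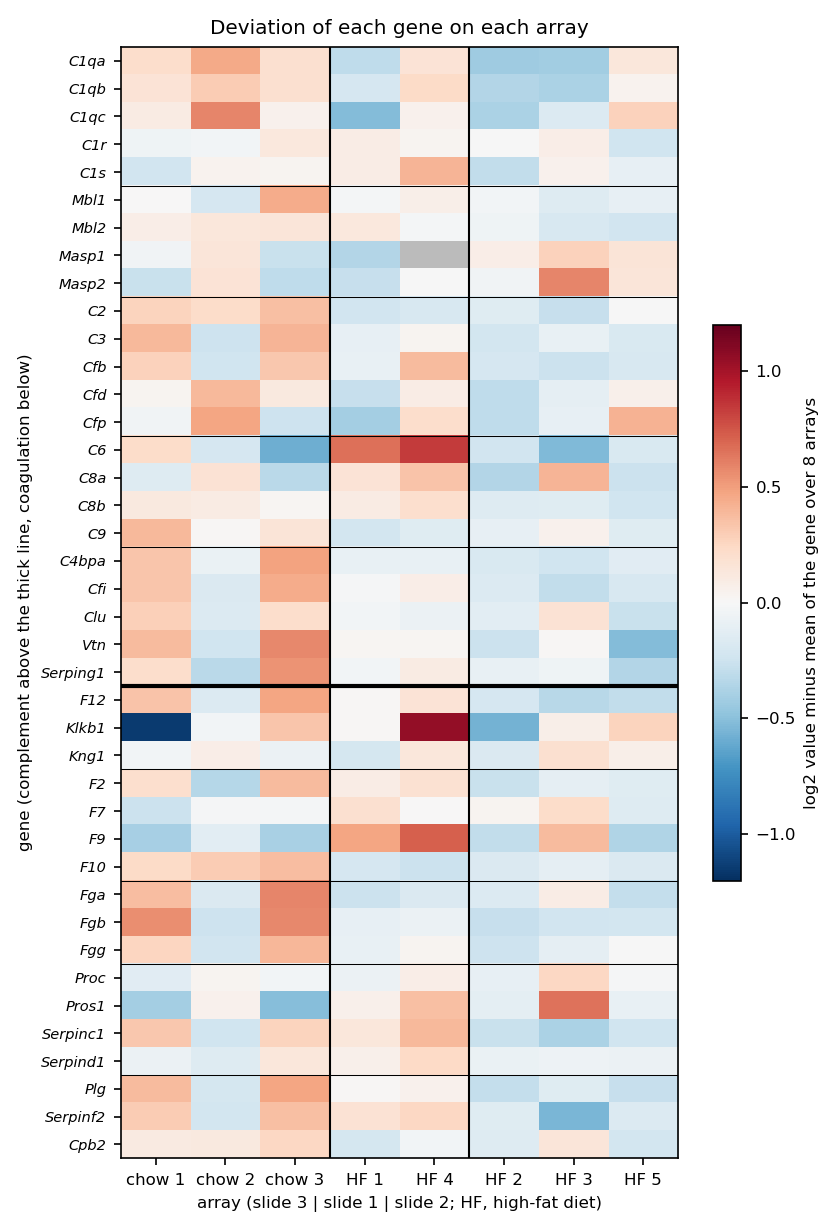
Rows are the 40 members tested and columns the 8 arrays ordered by slide (chow on slide 3, high-fat on slides 1 and 2), with colour for the log2 value minus the mean of that gene over its arrays and grey where Masp1 has no value. Chow arrays 1 and 3 are red for the regulators, the fibrinogen chains and Plg, chow array 2 is red for the C1q chains and blue for the fibrinogen chains, and C6 and F9 are red on the high-fat arrays of slide 1. F9 is also red on high-fat array 3, of slide 2.

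Beyond the 45 genes, 73 further genes of the pathways were listed (other components, regulators and receptors of complement, other clotting factors, inhibitors and thrombin receptors), and 58 were tested. Of these 3 passed, 2 with a positive fitted difference and 1 lower, which is Ggcx, beside the 3.07% and 0.49% of all features that passed in those directions. C3ar1, the receptor for the C3a fragment, carried by myeloid cells, was at −5.54 to −4.88 on the high-fat arrays against −6.75 to −6.40 on the chow arrays, and the fit called it (limma adjusted p = 0.00463). It was well above background on 5 of 5 high-fat and 0 of 3 chow arrays, and neither a fold nor a direction is given because its high-fat mean lay under the lowest signal above background of the chow arrays. The call was kept in the 8 fits that left out 1 array and lost in 6 other alternatives, among them quantile normalization (limma adjusted p = 0.153), the authors' value table (0.0987) and the slide block (0.127), and with normexp background the fitted difference was −0.58. Gp9, a platelet receptor subunit, was higher by 1.11 ± 0.23 (limma adjusted p = 0.0354), above background on 2 of 3 chow arrays, and had −0.22 with normexp background. Its call was lost in 12 of 19 alternatives, among them 7 of the 8 fits that left out 1 array (limma adjusted p 0.0561 to 0.134), the slide block (0.475) and the replicate block (0.230). The fitted differences of both dim probes turned sign with the background correction.

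The pathway genes just short of the threshold included 1 clotting inhibitor. Serpina5, the protein C inhibitor, was 0.38, 0.23, −0.57, 0.82 and 0.53 on the high-fat and −2.13, −0.88 and −0.996 on the chow arrays, a difference of 1.61 ± 0.38 (limma adjusted p = 0.0581). Its groups did not overlap. Among complement regulators Cpn1 and Cpn2, the chains of the carboxypeptidase N that trims anaphylatoxins, had −0.54 and −0.87 (adjusted p 0.137 and 0.143, limma), with Cpn2 at 1.35, −0.10 and 0.39 on the 3 chow arrays. C1rl, a protease like C1r, had −0.63 (0.114) and Anxa2, a plasminogen receptor, −0.70 (0.116). Serpinb2, an inhibitor of plasminogen activators, had 1.23 (0.0821) but was above background on 1 of 3 chow arrays. The thrombin receptor F2r had 0.80 (0.166), also above background on 1 of 3 chow arrays, and the vitamin K reductase Vkorc1l1 0.85 (0.120). The other genes that ranked among the 3 with the smallest p of their list were Susd4 at 1.42 ± 0.57, Colec10 at 1.22 ± 0.60, Colec12 at 0.25 ± 0.15, F2rl3 at 0.18 ± 0.41, C1qbp at −0.30 ± 0.15, Cd93 at −0.44 ± 0.19 and Hgfac at −0.45 ± 0.15, with 0 of these 7 passing. Susd4 was above background on 1 of 3 chow arrays and Colec10 on 2 of 3. Colec10 was −6.61 on chow array 3, and without that array its difference was 0.33. With normexp background 6 of the positive differences turned negative, to −0.53 for Susd4, −0.23 for Colec10, −0.39 for Colec12, −0.37 for Serpinb2, −0.43 for F2r and −0.26 for F2rl3.

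**Figure D4:**
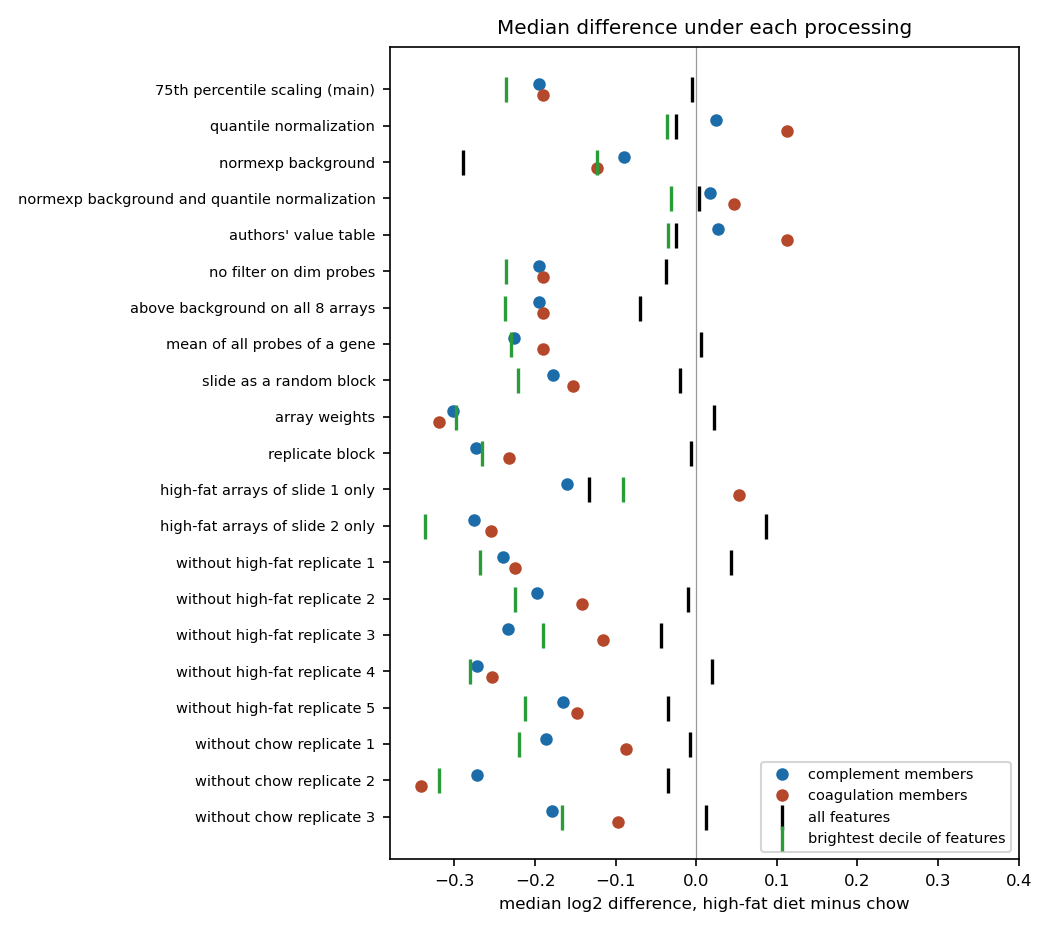
Median log2 difference, high-fat minus chow, of the 23 complement (blue) and 17 coagulation (red) members under each processing, with ticks for all features (black) and the brightest decile of features (green). The members' medians lie below 0 on the 75th percentile scale, at −0.19 for both, and above 0 under quantile normalization (0.025 and 0.11) and in the authors' value table (0.027 and 0.11).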

How the data were processed

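Rat liver RNA was hybridised to 8 Agilent arrays, read with Agilent Feature Extraction 11.0.1.1 per the submitters' processing notes. Per the file headers, the deposited processed signal and the median signal and local background are intensity values, the first with background subtracted and no scaling between arrays. The value table that the authors deposited is on a log2 scale, with equal 75th percentiles on all arrays. Its correlations with the scanner signal on the log2 scale were 0.995 to 0.999. How it was made is not given in the sources used here. The members' differences in it nearly equalled those under quantile normalization (median 0.0343 against 0.0341, 16 of 40 negative in both). For the members it is thus not a separate check from that alternative.

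Each array had 44254 spots; 331 to 550 outlier spots per array were left out, 0 were saturated, and control spots were not used. For each probe the log2 processed signal was averaged over spots, minus the array's 75th percentile. Probes were kept if 0.5 or more of their spots exceeded background on 3 or more arrays, and the probe with the highest mean stood for its gene. RefSeq accessions were matched to a table on GRCr8, which named 18005 of 30367 probes (15168 symbols). The limma 3.58.1 fit (R 4.3.3, lmFit and eBayes, two-sided) used all 8 arrays and 22872 features, with Benjamini-Hochberg adjustment at 0.05. It was tested on simulated data with independent arrays and no slide effect, which cannot show how it behaves where arrays of a slide are alike. The number of arrays limits the precision.

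Members, roles and gene lists were chosen with earlier results of these data known. Genes were named by rule: per role the 2 members with the smallest p, the subunit sets, C3, F2, Plg and Serpinc1, members without a probe, and from 6 lists of other pathway genes those that passed and the 3 with the smallest p; the remaining members were added to complete each role. The alternatives were quantile normalization, normexp background (offset 50, on the median signal), both together, the authors' value table, no or a stricter filter, the mean of probes, slide as a random block, array weights, a replicate block, the high-fat arrays of 1 slide, and leaving out each array. For a gene with 1 probe the filters and the mean of probes leave the difference unchanged, so a kept sign there is fixed in advance.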

Additional observations from a re-analysis of the deposited data

Results flagged for a closer look

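Cfb, factor B of the alternative complement pathway, stood out on high-fat array 4, where it was 6.33 against 5.69 to 5.85 on the other 4 high-fat arrays. The gap to the nearest of them was 0.738 of the group's range, above the 95% limit of 0.71 for 5 samples (Dixon). It was 1 of 57 members and named pathway genes examined in this way, and chance flags about 1 in 20 groups. Array 4 lay on slide 1 with high-fat array 1, where Cfb was 5.85.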

How the results depend on the processing

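With 75th percentile scaling, 815 features, 0 members and 3 other pathway genes passed (limma). All features passing numbered 149 with normexp background, 2114 with normexp background and quantile normalization, 535 with features above background on all 8 arrays, 84 with slide as a random block, 3763 with array weights, 1980 with the high-fat arrays of slide 1 only and 2905 with those of slide 2 only. Members passing were 2 with normexp and quantile normalization (F9 higher, F10 lower), where 4.54% of all features were called higher and 4.7% lower. With array weights 5 passed, all lower (2 complement, C2 and C4bpa, and 3 coagulation, F10, Fgb and Plg). That fit called 6.87% of all features lower, and 5 of 10 hepatocyte markers passed in it. With slide 1 only 1 member passed (F9, higher), where 4.37% of all features were called higher. Other pathway genes passing were 1 with normexp, 7 with normexp and quantile normalization, 5 in the authors' value table, 0 with the slide block, 16 with array weights and 6 with slide 2 only. The shares of all features passing in these fits were, in the same order, 0.651%, 9.24%, 4.98%, 0.367%, 16.5% and 12.7%. The complement and coagulation medians of −0.19 and −0.19 became 0.025 and 0.11 with quantile normalization, 0.018 and 0.046 with normexp and quantile normalization, and 0.027 and 0.11 in the authors' value table. The complement median was −0.089 with normexp and −0.30 with array weights, and the coagulation median 0.053 with slide 1 only. C3ar1 and Gp9 reversed to −0.58 and −0.22 with normexp. The cause of these shifts was not tested. Leaving out 1 array gave 374 to 789 features, 0 members, 1 to 2 other pathway genes, and medians of −0.27 to −0.17 (complement) and −0.34 to −0.087 (coagulation). Same-numbered arrays of the diets share a replicate number in the labels. Their correlations of deviations were 0.045, 0.035 and 0.065, within the −0.115 to 0.075 of differently numbered arrays. These values cannot decide whether the arrays are paired. With the replicate block 4 features, 0 members and 0 other pathway genes passed. Of the 40 members, 17 kept the sign of their difference in every alternative and 23 did not. Fewer probes were above background on the chow arrays, so the fitted differences of dim pathway genes rest partly on chow values that were not above background.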
